A study of Homo sapiens with 12 samples.

Results

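The genes described here encode the subunits of the 5 complexes of oxidative phosphorylation. They were taken by symbol from the platform annotation: names starting with NDUFA, NDUFB, NDUFC, NDUFS or NDUFV for complex I, SDHA to SDHD for complex II, UQCR for complex III, COX4 to COX8 for complex IV and ATP5 for complex V, without pseudogenes and assembly factors. This gave 77 genes, of which 74 were among the 14221 genes bright enough to be tested. Complex I had 33 genes (33 tested), complex II 3 (3 tested), complex III 6 (6 tested), complex IV 17 (15 tested) and complex V 17 (16 tested). ATP5IF1, the inhibitor of the ATP synthase, carries the ATP5 name but is no subunit and was counted in no complex. COX7B2, COX8C and ATP5MF did not pass the filter, and their signals were at most 94.7, 49.9 and 123 on any array. Each had only 1 probe set annotated to it alone, so a low signal does not show that the gene is silent. Subunits whose probe sets are annotated to several genes, such as UQCRH, are not analysed here. SDHB is not among the genes of complex II either.

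Complexes I and II take electrons from NADH and succinate and pass them to ubiquinone, complex III passes them on to cytochrome c, and complex IV gives them to oxygen. Complexes I, III and IV pump protons across the inner mitochondrial membrane, and complex V, the ATP synthase, uses the resulting gradient to make ATP. Most subunits are encoded in the nucleus, while a small core is encoded by mitochondrial DNA and must be built together with them.

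Expression was measured in 3 established human soft tissue sarcoma lines: A-204 (rhabdomyosarcoma by its label), SK-LMS-1 (leiomyosarcoma) and VA-ES-BJ (epithelioid sarcoma). Each line was left untreated, or was given taurolidine at 250 µmol/l, the death receptor ligand TRAIL at 50 ng/ml, or both agents, and was incubated with them for 6 h. Taurolidine is a derivative of the amino acid taurine, with antimicrobial use and activity against cultured tumour cells. Each line and treatment had 1 array, so there were 12 arrays, every treatment mean rests on n = 3 lines, and a line is 1 culture system rather than a patient. The untreated labels name no vehicle. Nothing says that arrays of a line came from separate cultures, so p-values measure the spread between these arrays alone, and some of that spread may be technical.

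Signals are deposited MAS5 intensities, a unit in which every array had been scaled to the same trimmed mean, and the array medians lay between 123.2 and 155.4. Changes are differences of log2(signal + 11.8), so those of dim genes are understated, and "rose" or "fell" means an adjusted p under 0.05 in a limma model with treatment and line as terms. A level of one gene cannot be set against that of another on such arrays, and precision is limited by how few arrays there are. The skeletal muscle genes MYOD1, MYOG and DES had signals of at most 145 in every untreated line, A-204 included. KRT19, a keratin, was at 16200 in VA-ES-BJ, where SMARCB1 was at 152. Both other untreated lines had SMARCB1 signals of 1240 or more. The other listed markers of epithelium and epithelioid sarcoma were mixed. KRT8 was highest in VA-ES-BJ as well, but MUC1 and CD34 were lowest there, with signals of 292 and 115. KRT18 ran from 9210 to 18900 over the untreated lines. Of the smooth muscle genes TAGLN was highest in SK-LMS-1 at 9760. ACTA2, smooth muscle actin, was at 1690 there, close to the 1670 of A-204, and highest in VA-ES-BJ at 4980. Leukocyte, erythroid and endothelial markers were at most 389 in the untreated lines.

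The VA-ES-BJ array with TRAIL stood apart. Its hybridisation controls, which are added after labelling, were 1.12 higher (log2) than on the untreated array of the line, against changes of -0.38 and 0.16 in the other lines. Genes with a mean signal of 24000 or more were 0.49 higher there in the median, while A-204 was at 0.04 and SK-LMS-1 at -0.01. Some of the counts and medians that use this array are also given without the line, and the others include it.

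Taurolidine alone was followed by higher signals of the subunit genes in all 3 lines. Of the 74 genes, 45 rose and 0 fell (limma, adjusted p under 0.05), while 7.71% of the 14221 genes tested rose. The median change of the 74 was 0.44 on the log2 scale, a factor of 1.36, against 0.00 for all genes. The changes that passed ran from 0.35 to 0.69, or from 1.28-fold to 1.61-fold, with a median standard error of 0.12 over the 74 genes. By line, A-204 had a median of 0.47, SK-LMS-1 one of 0.39 and VA-ES-BJ one of 0.45. The signal was higher with taurolidine in 3 of 3 lines for 70 of the 74, against 26.3% of all genes. In bulk RNA, a change in some of the cells and a change in the RNA of every cell cannot be told apart.

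These directions hold for the scale of the deposited values. Bacterial poly-A transcripts, which are spiked into the RNA before labelling, read 0.73 ± 0.06 (log2, SD, n = 3 lines) higher with taurolidine, and scaling the arrays to them moved the median of all genes to -0.73 and that of the subunit genes to -0.29, with 0 rising and 39 falling, or 39 of 74 against 69.7% of all genes falling. The distance of 0.44 between the subunit genes and all genes is the same on both scales, by the construction of that scaling. The part of the spiked RNA in the result was not tested further. On the deposited scale, without any 1 of the 3 lines 0 of the 74 subunit genes passed, with medians from 0.42 to 0.47. Of them 44 to 50 had an unadjusted p under 0.05. Without A-204, SK-LMS-1 and VA-ES-BJ in turn, 28, 33 and 49 of all 14221 genes rose, and 335, 392 and 312 fell.

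Complex I, the NADH dehydrogenase, had 23 of 33 genes that rose, 0 that fell, and a median change of 0.47. The largest rise was that of NDUFA1, a membrane subunit outside the catalytic core. Its signal was 16426 for untreated A-204, 13509 for SK-LMS-1 and 17409 for VA-ES-BJ, and 29316, 21328 and 25894 with taurolidine. The lowest treated array was above the highest untreated one, and the change was 0.69 ± 0.11 (SE, n = 3 lines; limma adjusted p = 0.0072). NDUFA13, another accessory subunit that is also known as GRIM-19, read 15289, 11873 and 12046 untreated and 27423, 18328 and 17876 with taurolidine, in the same order of lines. These groups did not overlap either, and the change was 0.68 ± 0.12 (adjusted p = 0.0087). NDUFS7, a core subunit whose iron-sulphur cluster hands electrons to ubiquinone, read 3565, 3027 and 2885 untreated and 6056, 4313 and 4716 treated. All 3 treated arrays were above all 3 untreated ones, with a change of 0.66 ± 0.10 (adjusted p = 0.0068).

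Subunits of the NADH-binding, peripheral and membrane parts of complex I were among those that rose. NDUFV1, which binds NADH, rose by 0.42 ± 0.11 (adjusted p = 0.033), NDUFS3, a core subunit of the peripheral arm, by 0.36 ± 0.09 (adjusted p = 0.024), and the membrane arm subunit NDUFB11 by 0.60 ± 0.12 (adjusted p = 0.015). The core subunits NDUFS1 and NDUFV2 did not pass, at 0.26 ± 0.10 and 0.15 ± 0.11. NDUFV3, a small accessory subunit next to NDUFV1, was the complex I gene with a change below 0. It read 4955, 2676 and 6433 untreated and 3593, 2149 and 8784 with taurolidine, lower in A-204 and SK-LMS-1 and higher in VA-ES-BJ, and its change of -0.11 ± 0.20 did not pass (adjusted p = 0.75). NDUFA9, an accessory subunit, was higher in A-204 and SK-LMS-1, at 0.63 and 0.39, and at -0.08 in VA-ES-BJ, and did not pass either (0.31 ± 0.15, adjusted p = 0.19).

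Complex II, succinate dehydrogenase, had the smallest median, 0.22, over 3 genes of which 1 rose. SDHB was not among the genes analysed, so the complex is covered only in part. SDHC, a membrane anchor, read 7759, 4770 and 6620 in untreated A-204, SK-LMS-1 and VA-ES-BJ and 10584, 6705 and 8646 with taurolidine. The groups overlapped because the lines differed, but every line was higher, by 0.39 to 0.49, and the change was 0.44 ± 0.09 (adjusted p = 0.017). That call rests on the brightest probe set: the other bright ones changed by 0.09, 0.27 and 0.37, and the gene's change was 0.17 with the mean of all its tested probe sets (adjusted p = 0.27) and 0.12 with a probe set of no suffix (adjusted p = 0.59). The other anchor, SDHD, changed by 0.22 ± 0.10 (adjusted p = 0.15) and was higher by 0.29 for A-204, 0.04 for SK-LMS-1 and 0.32 for VA-ES-BJ. SDHA, the flavoprotein that oxidises succinate, read 7120, 3928 and 13362 untreated and 7329, 3483 and 16442 treated. It was lower in SK-LMS-1 and higher in the others, and its change of 0.06 ± 0.11 did not pass (adjusted p = 0.78). The SDHA probe set is of a type that can detect related sequences, and SDHA has pseudogenes. With 3 genes, the median of complex II rests on SDHD, and its difference from the other complexes was not tested.

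Complex III, which passes electrons from ubiquinol to cytochrome c, had 5 of 6 genes that rose and a median of 0.44. The large core proteins UQCRC1 and UQCRC2 rose by 0.49 ± 0.10 (adjusted p = 0.015) and 0.36 ± 0.10 (adjusted p = 0.044). UQCRC1 read 9746, 10391 and 6971 untreated and 15383, 14208 and 8973 with taurolidine, higher in every line although VA-ES-BJ stayed below the untreated arrays of the other lines. Of the small accessory subunits, UQCR11 rose by 0.51 ± 0.14 (adjusted p = 0.041), UQCR10 by 0.45 ± 0.09 (adjusted p = 0.013) and UQCRQ by 0.43 ± 0.11 (adjusted p = 0.033). UQCRB, which helps to bind ubiquinone, was higher in all 3 lines but missed the threshold (0.42 ± 0.13, adjusted p = 0.062).

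Complex IV, cytochrome c oxidase, had 7 of 15 genes that rose and a median of 0.46. COX5B, which binds zinc on the matrix side, read 27498, 17371 and 18244 untreated and 38534, 24895 and 26984 with taurolidine. Each line was higher by a similar amount, 0.49 for A-204, 0.52 for SK-LMS-1 and 0.56 for VA-ES-BJ, and the change was 0.52 ± 0.09 (adjusted p = 0.0091). COX6A1 read 25639, 27608 and 24542 untreated and 38959, 38663 and 34311 treated, with no overlap (0.52 ± 0.10, adjusted p = 0.014). COX6B1, on the side of the intermembrane space, rose by 0.52 ± 0.12 (adjusted p = 0.022).

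Several complex IV subunits exist as a common form and a form with a restricted tissue range, and the forms that rose were common ones. The restricted forms had standard errors of 0.19 to 0.61, larger than those of the common forms named here. Their lack of a call therefore does not set the responses of the forms apart. COX4I1 rose by 0.51 ± 0.13 (adjusted p = 0.029), and COX4I2, known from lung and hypoxia, was dim at 303 to 736 and did not pass (0.28 ± 0.20, adjusted p = 0.37). COX6A2, the form of heart and skeletal muscle, lay between 107 and 276 on all arrays (0.67 ± 0.27, adjusted p = 0.12). COX6B2, the testis form, lay between 14.0 and 278 and had the lowest change of the 74, -0.96 ± 0.61 (adjusted p = 0.31), with opposite signs in the lines. COX7A1, the other muscle form, was well above background in SK-LMS-1, where it read 1323 untreated and 1802 with taurolidine, and its change over the 3 lines did not pass (0.59 ± 0.19, adjusted p = 0.068). The common COX7A2 did not pass either (0.32 ± 0.15, adjusted p = 0.19), while COX7B rose by 0.49 ± 0.11 (adjusted p = 0.021) and COX8A by 0.43 ± 0.10 (adjusted p = 0.025).

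Complex V, the ATP synthase, had 9 of 16 genes that rose and a median of 0.45, and all 16 were higher in 3 of 3 lines. ATP5ME, a small membrane subunit, read 16802, 10475 and 11979 untreated and 26124, 16396 and 18192 with taurolidine. The treated SK-LMS-1 array lay just below the untreated A-204 array. The rise within lines was even, from 0.60 to 0.65 (0.63 ± 0.11, adjusted p = 0.0087). That size rests on the brightest probe set: a further bright one of ATP5ME, with a mean of 8349, was higher in every line but changed by only 0.23. The ATP5ME changes given for the other comparisons are from the brightest probe set too. ATP5MK, another small membrane subunit, rose by 0.52 ± 0.15 (adjusted p = 0.049). ATP5MC1, which encodes the ring subunit that turns with proton flow, rose by 0.51 ± 0.13 (adjusted p = 0.033), and ATP5MC2, which encodes the same mature protein, by 0.48 ± 0.11 (adjusted p = 0.020). ATP5MC3, the last gene of that trio, did not pass (0.34 ± 0.14, adjusted p = 0.11). The large subunits of the catalytic head did not pass: ATP5F1A changed by 0.27 ± 0.12 (adjusted p = 0.16) and ATP5F1B by 0.34 ± 0.12 (adjusted p = 0.077). ATP5IF1, the inhibitor, changed by 0.42 ± 0.15 and did not pass (adjusted p = 0.087).

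**Figure D1:**
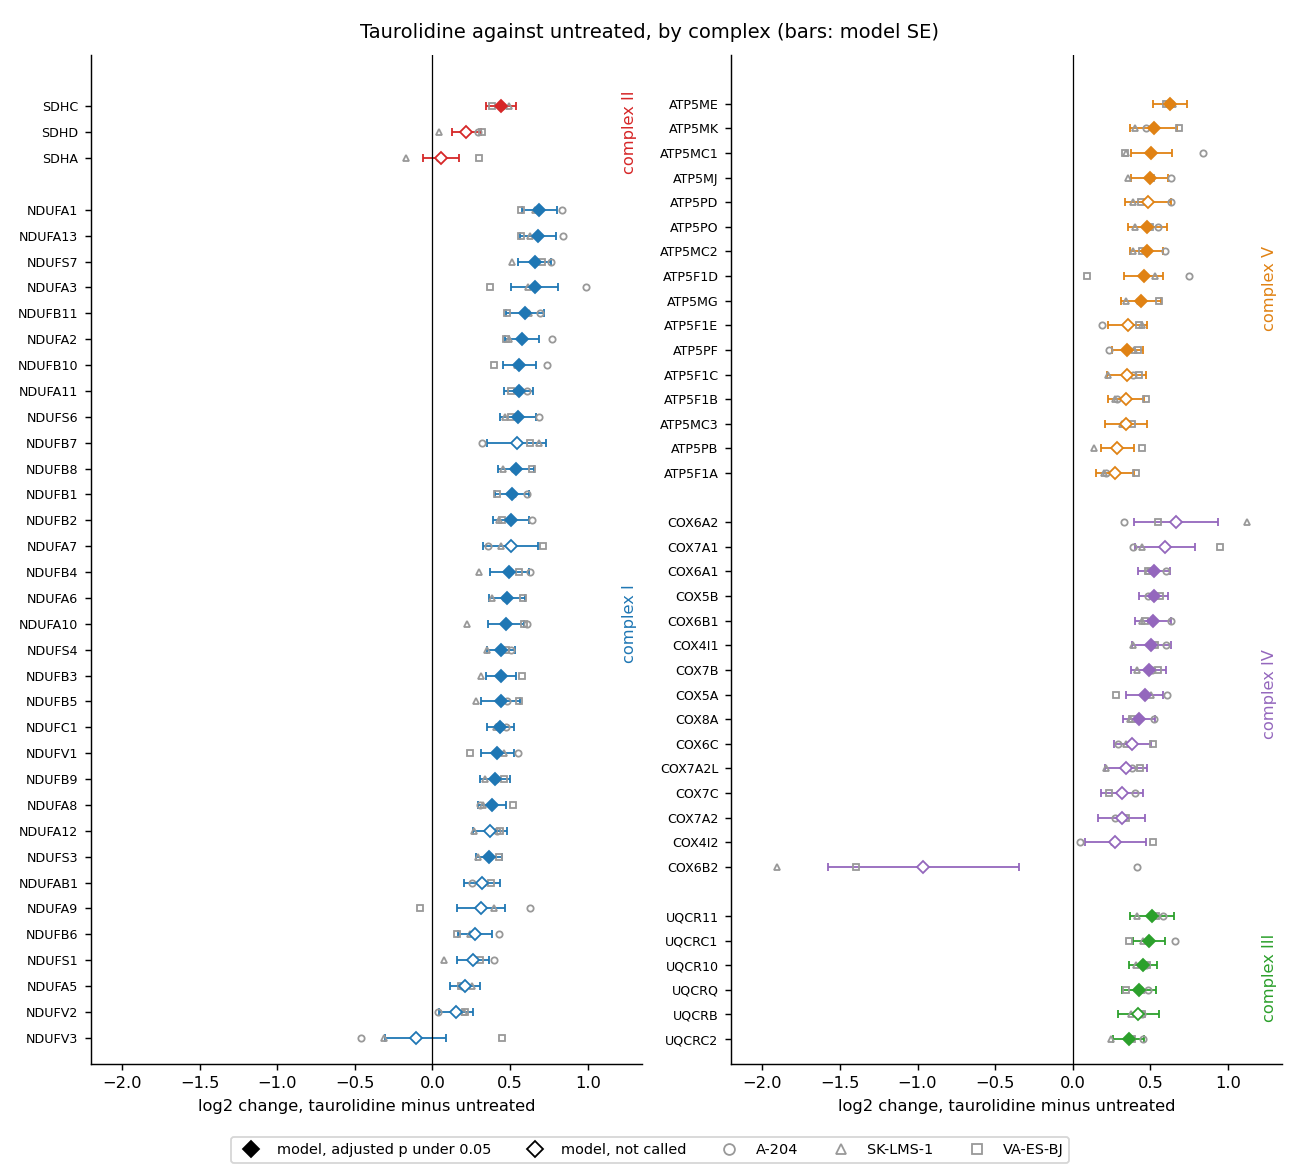
Change with taurolidine on the log2 scale (horizontal axis) of each tested subunit gene, ordered by size within its complex; diamonds are model values with SE, filled where the adjusted p is under 0.05, and grey symbols are the 3 lines. Filled diamonds number 23 of 33 in complex I, 1 of 3 in complex II, 5 of 6 in complex III, 7 of 15 in complex IV and 9 of 16 in complex V, all above 0 on the deposited scale, and all below 0 when arrays are scaled to the spiked poly-A transcripts.

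The subunit genes are mostly bright, and bright genes as a class read higher with taurolidine on these arrays. Of the 74, 66 had a mean signal of at least 6000, a limit chosen after the values were seen. Among all 2203 genes this bright, 22.1% rose and the median change was 0.23. Of the 66 subunit genes among them, 44 rose and the median was 0.44. The difference in share between 44 of 66 and the bright background was not tested. Above a mean of 24000 the medians were closer, at 0.43 for 22 subunit genes and 0.30 for 299 genes. Quantile normalisation, which forces the same distribution on every array, lowered the subunit median to 0.24 with 18 genes rising, and moved the median of all genes to 0.06.

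**Figure D2:**
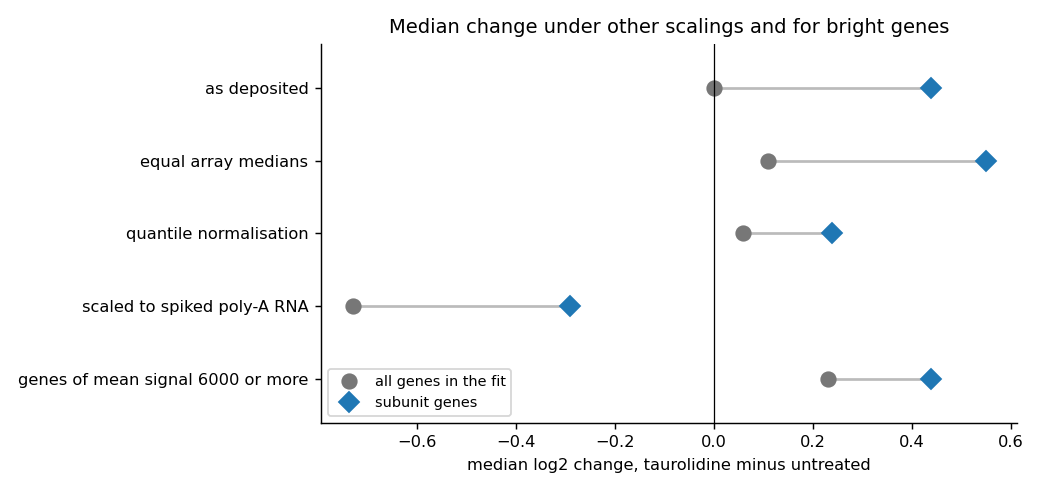
Median log2 change with taurolidine (horizontal axis) of the subunit genes (diamonds) and of all genes in the same fit (circles), for the deposited values, 3 other scalings, and a fit on genes with a mean signal of 6000 or more. The subunit median is above that of all genes in each row and is at -0.29 after scaling to the spiked poly-A transcripts, where that of all genes is -0.73.

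Where a gene had further probe sets, the bright ones moved in the same direction. Of 30 other probe sets with a mean of at least 1000, 28 were higher with taurolidine, with a median of 0.44. Of 28 dimmer ones 12 were higher, with a median of -0.08. NDUFS7 and UQCR11 each had a dim second probe set, with means of 135 and 851, that changed by -0.41 and -0.06, opposite to the brighter one. COX5B had bright further probe sets at 0.56 and 0.72. Other probe sets ended the taurolidine call of NDUFS7, SDHC, UQCRC2, UQCR10, UQCR11, COX4I1, COX5B, COX7B and ATP5MK, and of the MDH2 and NRF1 genes given further on, under the mean of all probe sets or the preference for those of no suffix. Short genes had the larger changes: 13 of the 17 subunit genes under 5000 bases long rose, with a median of 0.52. Between 5000 and 15000 bases 24 of 36 rose (median 0.48), and between 15000 and 50000 bases 6 of 17 (median 0.35). At 50000 bases or more 2 of 4 rose (median 0.33). All tested genes had medians of 0.17, 0.11, 0.00 and -0.12, from the shortest class to the longest. Their share that rose was not counted by length. Over the 74 genes, which share the same arrays, Spearman's rho between gene length and change was -0.48, and over all 14206 genes with a length it was -0.20. The subunit genes had a median length of 9589 bases, against 28495 for all.

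Promoters of these genes are known for binding NRF1, or nuclear respiratory factor 1, and ETS factors such as GABPA. RefSeq promoter windows of 300 bases (250 before the start and 50 after it, GRCh38.p14) were found for 66 of the 77 genes and searched on both strands. GCGCATGC, a core of the NRF1 motif, was in 13 windows, or 19.7%, against 5.92% of 11416 tested genes and 3.68% of all 27305 genes with a window. CCGGAAG, the core bound by GABPA and other ETS factors, was in 19, or 28.8%, against 20.45% of tested genes. YY1's GATGGCG was in 13.6%, against 8.61%, and SP1's GGGCGG in 63.6%, against 73.9%. The genes with and without GCGCATGC had similar median changes with taurolidine, 0.48 and 0.45. Of the 41 genes that rose and had a window, 10 held it, and of the 23 that did not pass, 3 did. A match is a description of letters, and no binding was measured.

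The stretches below are the upstream parts around the matches of 5 genes, shown because 4 of them, NDUFA1, NDUFS7, COX5B and ATP5ME, rose on the deposited scale and have a change of 0.52 or more, while SDHD holds both motifs and did not pass. They are written 5′ to 3′ along the gene, and capitals mark GCGCATGC or CCGGAAG, or the reverse complement of either. NDUFA1, NDUFS7 and ATP5ME show 1 motif each.
NDUFA1, chrX:119871755-119871822, plus strand: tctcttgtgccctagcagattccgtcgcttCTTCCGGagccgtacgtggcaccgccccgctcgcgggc
NDUFS7, chr19:1383804-1383871, plus strand: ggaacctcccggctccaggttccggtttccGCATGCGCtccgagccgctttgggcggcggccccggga
COX5B, chr2:97645896-97646061, plus strand: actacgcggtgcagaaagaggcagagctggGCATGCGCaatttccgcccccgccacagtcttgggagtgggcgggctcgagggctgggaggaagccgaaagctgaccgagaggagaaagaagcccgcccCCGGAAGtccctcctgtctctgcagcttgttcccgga
ATP5ME, chr4:674317-674384, minus strand: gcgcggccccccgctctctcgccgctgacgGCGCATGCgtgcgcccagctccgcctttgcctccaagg
SDHD, chr11:112086733-112086833, plus strand: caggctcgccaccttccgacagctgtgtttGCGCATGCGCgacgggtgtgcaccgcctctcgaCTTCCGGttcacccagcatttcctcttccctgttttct
In NDUFA1 the ETS core begins 47 bases before the start, and in NDUFS7 the NRF1 core begins 73 bases before it. COX5B carries an NRF1 core at 136 and an ETS core at 37 bases before the start. In SDHD the NRF1 letters are palindromic and match on both strands, at 110 and 108 bases before the start, with an ETS core at 77. A further ETS core of COX5B begins 5 bases before the start and is not shown, and that of ATP5ME begins at base 4 of the transcript, outside the part shown. Over the whole windows both motifs were found in 5 genes: SDHD, COX5B, COX6A1, ATP5ME and ATP5PF. None of the 4 motifs was found in 16.

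Taurolidine and TRAIL together gave nearly the picture of taurolidine alone. Against untreated cells 42 of 74 genes rose and 0 fell, with 7.58% of all genes rising, and the median change was 0.43. By complex the genes that rose were 21 of 33, 1 of 3, 5 of 6, 8 of 15 and 7 of 16. Of the 42, 41 also rose with taurolidine alone, in a comparison that uses the same untreated arrays. NDUFA1 read 31107, 18896 and 27108 with both agents (0.68 ± 0.11, adjusted p = 0.0076), ATP5ME rose by 0.64 ± 0.11 (adjusted p = 0.0085), NDUFS7 by 0.64 ± 0.10 (adjusted p = 0.0074) and UQCR11 by 0.58 ± 0.14 (adjusted p = 0.029). COX6C, which had missed the threshold with taurolidine alone, was the gene that passed with both agents only (0.42 ± 0.12, adjusted p = 0.044). Scaled to the spiked poly-A transcripts, 0 rose, 5 of 74 fell and the median was -0.11, against 47.4% of all genes falling and a median of -0.52.

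Taurolidine added to TRAIL compares arrays that the taurolidine comparison does not use. Here 18 of 74 genes rose and 0 fell, against 6.50% of all genes, and the median change was 0.32. The 18 were all among the 45 of the other comparison, which makes 40.0% of the 45 and 100% of the 18. Both comparisons come from the same fit and share each gene's estimate of the spread, so their calls are not independent. The overlap over all genes was not counted. Over the 74 genes, whose values come from the same arrays, Pearson's r between the changes was -0.17, and it was 0.69 over the 73 without the dim COX6B2, a gene left out after its values were seen. Over all genes it was 0.72. Complex I had 10 of them, complex II 1, complex III 2, complex IV 2 and complex V 3. The largest rises were those of NDUFA2, an accessory subunit of complex I (0.53 ± 0.11, adjusted p = 0.019), ATP5ME (0.52 ± 0.11, adjusted p = 0.019) and UQCRC1 (0.50 ± 0.10, adjusted p = 0.017). NDUFA2 read 6802, 7273 and 7246 with TRAIL and 11431, 10121 and 9393 with both agents, with no overlap, and 6660, 7745 and 6912 untreated. SDHC rose by 0.41 ± 0.09 (adjusted p = 0.025), COX6A1 by 0.40 ± 0.10 (adjusted p = 0.038) and COX5B by 0.36 ± 0.09 (adjusted p = 0.036). The calls of NDUFA2, SDHC and COX5B ended with other probe sets, at 0.51, 0.19 and 0.25 with the mean of all. Over the 6 pairs of arrays with and without taurolidine, 55 of the 74 genes were higher in all 6, against 17.1% of all genes. In the 4 pairs of A-204 and SK-LMS-1 alone, 69 were higher in all 4, against 24.9% of all genes.

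The VA-ES-BJ line moved less in this comparison, with a median of 0.17, while A-204 was at 0.47 and SK-LMS-1 at 0.33. In complex V the VA-ES-BJ median was 0.05, and 9 of 16 genes were higher. This comparison rests on the TRAIL array that stood apart. Without VA-ES-BJ the median of the 74 was 0.41, and without any 1 line 0 of the 74 passed. Of all 14221 genes 33, 70 and 38 rose without A-204, SK-LMS-1 and VA-ES-BJ in turn, and 220, 411 and 278 fell. Without VA-ES-BJ the changes were 0.61 for NDUFA2 and ATP5ME, 0.56 for UQCRC1, 0.50 for COX6A1, 0.48 for SDHC and 0.40 for COX5B, with adjusted p from 0.091 to 0.14. Scaled to the spiked poly-A transcripts, which were 0.59 ± 0.16 (SD) higher, 0 genes rose and 28 of 74 fell, against 52.2% of all genes falling.

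**Figure D3:**
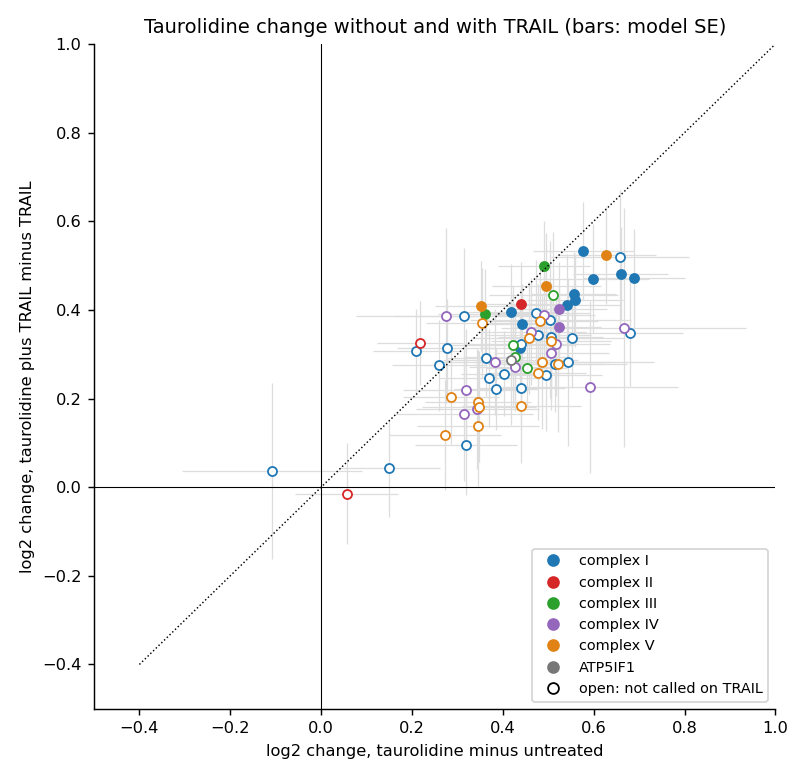
Log2 change with taurolidine against untreated (horizontal axis) and with taurolidine added to TRAIL (vertical axis) for the subunit genes, coloured by complex, with SE bars; filled points rose in the second comparison and the dotted line marks equal change. The 18 filled points lie above 0 on both axes on the deposited scale, where scaling to spiked poly-A transcripts moves every value of the horizontal axis below 0; COX6B2, at -0.96 and 1.18, lies outside the axes.

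TRAIL alone changed none of the 74 genes (limma, adjusted p under 0.05), as it did 0% of all genes, and 1 had an unadjusted p under 0.05. The median was 0.12 over the 3 lines, made of 0.07 for A-204, -0.04 for SK-LMS-1 and 0.31 for VA-ES-BJ, and 70 of 74 genes were higher in VA-ES-BJ. Without VA-ES-BJ the median was 0.01. The 3 smallest p-values belonged to COX6B2 (-1.49 ± 0.61, adjusted p = 1.0), NDUFB3 (0.213 ± 0.095, adjusted p = 1.0) and NDUFA13 (0.26 ± 0.12, adjusted p = 1.0). ATP5MK read 33638, 25003 and 24496 untreated and 37326, 23897 and 42030 with TRAIL, so that VA-ES-BJ was the line farthest from its control.

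TRAIL added to taurolidine changed 0 of 74 genes, against 0% of all genes, and 0 had an unadjusted p under 0.05. The median was -0.01, and the smallest p-values were those of COX7A1 (-0.39 ± 0.19), COX7A2L (-0.15 ± 0.14) and COX6B2 (0.65 ± 0.61), each with an adjusted p of 1.0. A departure from additivity (log2 scale) of both agents together also passed for 0 of 74 genes and 0% of all genes, with 1 at an unadjusted p under 0.05. Its median was -0.13. It was 2.14 ± 0.87 for COX6B2, -0.33 ± 0.17 for NDUFA13 and -0.22 ± 0.13 for NDUFB3, each with an adjusted p of 1.0. The TRAIL array of VA-ES-BJ enters this comparison too. Without that line the median was -0.02, and 0 of the 74 genes passed or had an unadjusted p under 0.05. The values were then 1.16 for COX6B2, -0.32 for NDUFA13 and -0.13 for NDUFB3.

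**Figure D4:**
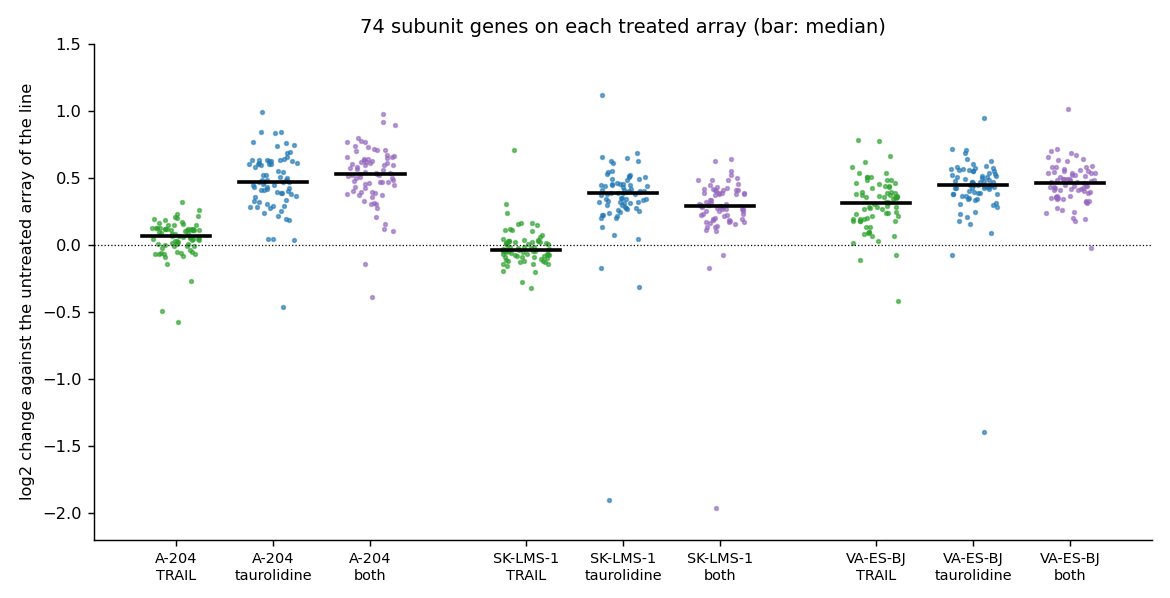
Log2 change of the 74 subunit genes on each treated array against the untreated array of the same line (vertical axis), with 1 point per gene and bars at the medians. Medians with taurolidine are 0.47, 0.39 and 0.45, and with TRAIL 0.07, -0.04 and 0.31, the last on the VA-ES-BJ array whose hybridisation controls were high; on the scale of the spiked poly-A transcripts the taurolidine medians fall below 0.

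Between the lines, differences of the subunit genes mostly placed A-204 on top. Of the 74, 54 differed (limma F test over the lines, adjusted p under 0.05), a share near the 73.9% of all genes, and leaving out A-204, SK-LMS-1 or VA-ES-BJ gave 29, 30 or 42. In SK-LMS-1 42 were lower than in A-204 and 3 higher, against 28.6% of all genes lower, and in VA-ES-BJ 38 were lower and 4 higher, against 30.3% lower. Between VA-ES-BJ and SK-LMS-1, 16 were higher and 16 lower, so 32 of 74 differed, against 56.9% of all genes. The count below A-204 fell to 27 for SK-LMS-1 and 24 for VA-ES-BJ with equal array medians, and in SK-LMS-1 to 17 when scaled to the spiked transcripts. Shares of all genes are not given for these scalings or with a line left out, so those counts have no background beside them.

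COX7A1, the muscle form of a small complex IV subunit, had the largest difference. It read 1323, 1353, 1802 and 1759 on the SK-LMS-1 arrays, and between 6.17 and 23.1 on the 8 arrays of the other lines. The gene passed the filter only through the 4 SK-LMS-1 arrays, the line where it is high. Its line test was thus not independent of the filter, and no p-value is given. It is among the genes counted above as differing between the lines. No size of the difference is given, because the other lines read near the floor of the array. The skeletal muscle markers were low in every line, as given above, and the smooth muscle genes were not ordered alike: CNN1 was highest in SK-LMS-1, at 661 against at most 162, as was TAGLN, while ACTA2 was highest in VA-ES-BJ.

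SDHA read 13362 to 17426 in VA-ES-BJ, 7120 to 7733 in A-204 and 3483 to 3963 in SK-LMS-1. The 3 ranges did not overlap, and VA-ES-BJ was 2.07 ± 0.10 above SK-LMS-1 (4.20-fold, adjusted p = 1e-06). The anchors of the same complex were not ordered this way: SDHD was lowest in VA-ES-BJ, at 7161 to 9204, and SDHC read 7647 to 10584 in A-204, 6620 to 8824 in VA-ES-BJ and 4474 to 6705 in SK-LMS-1. ATP5MC1 read 14393 to 18835 in SK-LMS-1 and 5056 to 9402 in the other lines, and was 1.30 ± 0.11 above A-204 there (adjusted p = 3.1e-05). Of the other ring genes, ATP5MC3 was lower in SK-LMS-1, at 17080 to 22228, than in A-204, at 28040 to 37756, and ATP5MC2 overlapped between the lines.

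NDUFA8, an accessory subunit of complex I, was lowest in VA-ES-BJ, at 4011 to 5757, against 9203 to 11900 in A-204 (-1.07 ± 0.08, adjusted p = 1.1e-05). NDUFV1 was also lowest in VA-ES-BJ, at 4861 to 6833, against 9881 to 14742 in A-204 (-1.14 ± 0.09, adjusted p = 2e-05). SK-LMS-1 did not differ from A-204 for NDUFV1 beyond the threshold (-0.195 ± 0.094, adjusted p = 0.11). NDUFV3, its neighbour in the complex, was in contrast highest in VA-ES-BJ, by 0.83 ± 0.17 over A-204 (adjusted p = 0.0036).

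**Figure D5:**
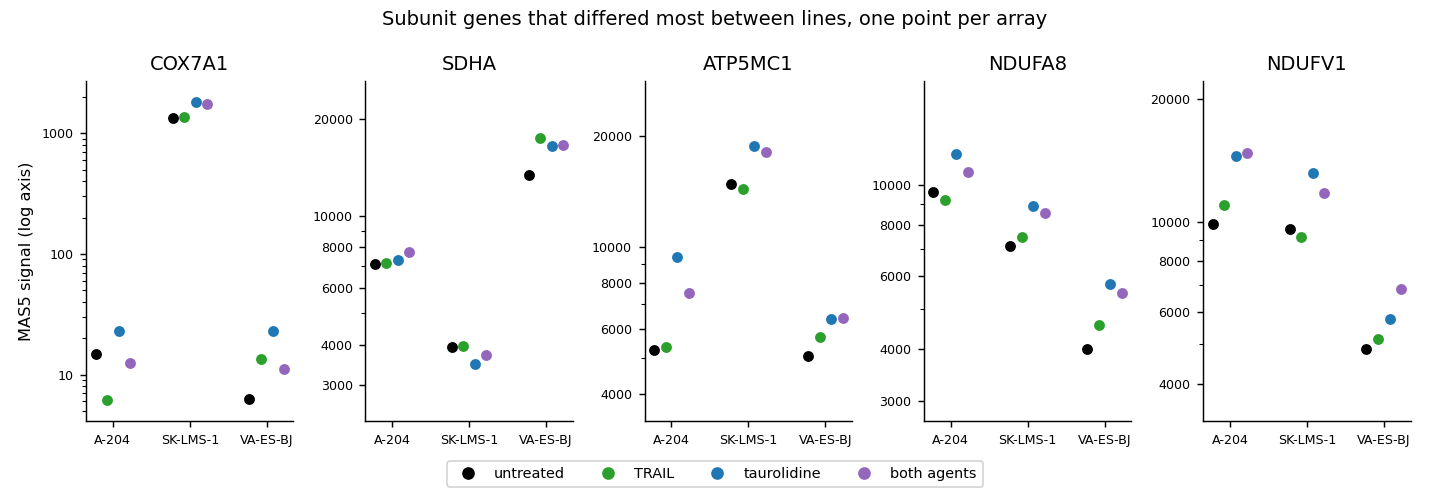
MAS5 signal (log axis, a separate range for each gene) of the 5 subunit genes with the smallest p of the line test, with 1 point per array coloured by treatment. COX7A1, which passed the filter only through SK-LMS-1, reads 1323 to 1802 there and at most 23.1 elsewhere. SDHA is highest and NDUFA8 and NDUFV1 are lowest in VA-ES-BJ, and ATP5MC1 is highest in SK-LMS-1.

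The response to taurolidine did not differ detectably between the lines. The model had a term for each line's response and an additive term for TRAIL, so arrays with and without TRAIL stood as repeats within a line. The VA-ES-BJ array with TRAIL, which stood apart, was among these repeats, and no subunit gene passed when that line was left out. With all lines 0 of 74 genes passed, against 1.43% of all genes, and 1 had an unadjusted p under 0.05. This was NDUFV3 (adjusted p = 0.22), whose signal with taurolidine was lower in A-204 and higher in VA-ES-BJ. NDUFA3 (adjusted p = 0.28) and NDUFA2 (adjusted p = 0.30), both accessory subunits, followed. The change of both genes was largest in A-204. There NDUFA3 went from 4963 to 9879 with taurolidine, while SK-LMS-1 went from 4267 to 6536 and VA-ES-BJ from 4960 to 6404.

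The genes that surround the complexes moved less evenly with taurolidine. Of 7 tested genes of mitochondrial DNA, 0 passed and 2 had an unadjusted p under 0.05, with a median of 0.29. The largest change was that of COX1, a catalytic subunit of complex IV, which read 34400, 28000 and 38200 untreated and 64900, 46300 and 52800 with taurolidine (0.70 ± 0.21, adjusted p = 0.050, not below the threshold). ND2, a complex I subunit, changed by 0.47 ± 0.18 (adjusted p = 0.099). Of 10 genes that carry or feed electrons 3 rose, against 7.71% of all genes. These were ETFB by 0.51 ± 0.11 (adjusted p = 0.018), CYC1, the cytochrome of complex III, by 0.49 ± 0.09 (adjusted p = 0.013), and ETFA by 0.36 ± 0.09 (adjusted p = 0.033). ETFA and ETFB form the electron transfer flavoprotein.

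Assembly factors rose and fell, where 7.71% of all genes rose and 11.5% fell. Those of complex I had 3 of 14 that rose, NDUFAF2, TIMMDC1 and NDUFAF3, by 0.35 to 0.40, and 0 that fell. Of those of complex II, SDHAF1 fell by 0.57 on the log2 scale (SE 0.12, adjusted p = 0.018), 1 of 4 tested. BCS1L, which completes complex III, rose by 0.51 ± 0.11 (adjusted p = 0.019), 1 of 6. Of 20 factors of complex IV, 4 rose, among them PET100 (0.69 ± 0.13) and SURF1 (0.64 ± 0.17), and 2 fell. COA7 read 2050, 1080 and 841 untreated and 753, 559 and 280 with taurolidine, lower in each line (-1.33 ± 0.21, adjusted p = 0.0069). SCO2, which delivers copper to complex IV, fell from 3230, 2390 and 1350 to 979, 1140 and 778 (-1.20 ± 0.25, adjusted p = 0.016). FMC1 was the 1 of 5 for complex V that rose (0.42 ± 0.10, adjusted p = 0.023).

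Among regulators of mitochondrial biogenesis the calls were falls. Of 15 tested, 0 rose and 5 fell, against 11.5% of all genes falling, 12 were lower in all 3 lines, and the median was -0.34. PPRC1, a coactivator of nuclear respiratory factors, read 2800, 2490 and 3620 untreated and 810, 1020 and 861 with taurolidine, with no overlap (-1.71 ± 0.19, adjusted p = 0.0018). The coactivator gene PPARGC1B fell by 1.60 (SE 0.41, adjusted p = 0.031) and NRF1 itself by 1.12 (SE 0.29, adjusted p = 0.031), from 878, 947 and 1070 to 303, 552 and 521. MTERF3, a repressor of mitochondrial transcription, fell by 0.85 (SE 0.13, adjusted p = 0.0064).

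Of all genes 7.71% rose and 11.5% fell, and of those with a mean signal of at least 6000 a share of 22.1% rose. Among other mitochondrial genes, 7 of 15 of the tricarboxylic acid cycle and pyruvate dehydrogenase rose and 0 fell, with a median of 0.33. MDH2, malate dehydrogenase, rose by 0.52 ± 0.10 (adjusted p = 0.015). Of 18 carriers, porins and import genes 4 rose, TIMM13 the most (0.53 ± 0.10, adjusted p = 0.011), and 1, TIMM9, fell (-0.51 ± 0.13, adjusted p = 0.034). The mitochondrial ribosomal proteins had 23 of 75 that rose, 2 that fell, and a median of 0.23. Proteasome subunits, the 1 list outside mitochondria, had 8 of 33 that rose, 0 that fell, and a median of 0.32. These medians lie below the 0.44 of the oxidative phosphorylation subunits, and the differences between lists were not tested. Scaled to the spiked poly-A transcripts, every change named as a rise among these surrounding genes lay below 0.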

How the data were processed

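The authors deposited array intensity on a linear scale from the Affymetrix platform for all 12 arrays, and MAS5 is named for it per the submitters' processing notes; neither the version of MAS5 nor the target of its scaling nor detection calls are stated there. The trimmed mean (2% off each end) lay between 1000.1 and 1000.2 on every array. The platform annotation gave 41097 of 54675 probe sets a single gene, and 1801 with several genes named none. A probe set was tested where it exceeded the table median, 136.5, on at least 3 arrays, and the brightest one stood for its gene. Models of log2(intensity + 11.8), 11.8 being the 10th percentile, were fitted by limma (3.58.1, R 4.3.3) to all 12 arrays with treatment and line as terms (6 residual and 1.98 prior degrees of freedom), with Benjamini-Hochberg adjustment over 14221 genes. The line is a block because arrays with the same number are from 1 line. Deviations of these arrays from treatment means had correlations of 0.857 to 0.908 within lines and of -0.483 to -0.389 between them. The fit was tested on simulated data.

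The genes and lists were chosen with earlier results of these data known, and the lists are no independent evidence. Named in the text are up to 3 of the largest rises and falls per complex and comparison, all genes of complexes II and III, paired isoforms, the 5 smallest p of the line test, 3 smallest p where none passed, and up to 4 genes of each further list. The complex I genes NDUFV1, NDUFS3, NDUFS1, NDUFV2, NDUFV3, NDUFA9, and the genes COX6C, ATP5F1A, ATP5F1B, ATP5MC2, ATP5MC3 and ATP5IF1 were named after their values were seen. Promoter sequences and gene lengths are from RefSeq tables of GRCh38.p14. Alternatives were the added constant, the filter, the scaling, the choice of probe sets, the block, an intensity trend, the arrays in the fit and leaving out each line.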

Additional observations from a re-analysis of the deposited data

How the results depend on the processing

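The count of subunit genes that rose depended on the filter, the scaling and the arrays in the fit. With taurolidine alone it was 45 of 74 and became 21 of 77 with no filter and 18 of 74 after quantile normalisation. Over all genes the counts that rose were 1097 of 14221, 509 of 19775 and 1375 of 14221. With both agents the subunit count was 42 and became 19 and 19, where 1078, 453 and 1387 of all genes rose. With taurolidine added to TRAIL it was 18 and became 3 and 8, where 925, 290 and 1309 of all genes rose. That subunit count was 6 of 74 with equal array medians, where 477 of 14221 genes rose. It was 40 of 70 when genes needed a mean of 1000, where 1313 of 7648 genes rose. Among genes with a mean of 6000 or more (a setting chosen after seeing the data) it was 46 of 66, where 644 of 2203 rose. With an intensity trend it was 42 of 74, where 1406 of 14221 rose. The median with taurolidine was 0.24 after quantile normalisation, 0.55 with equal array medians and 0.38 with the mean of all probe sets of a gene. With both agents it was 0.21 after quantile normalisation. Of all genes that passed with taurolidine, 40.1% rose; this share was 51.8% after quantile normalisation and 60.9% with equal array medians.

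Without the line as a replicate block 0 subunit genes rose in any of these 3 comparisons, with 19, 15 and 2 at an unadjusted p under 0.05, because the differences between the paired lines then enter the error. Of all 14221 genes 6, 8 and 10 rose in that setting. With the 6 arrays of a comparison alone the count was 0 in each, and 0 of 14221 genes passed. Leaving out each line gave 0 rises of subunit genes in all 3 comparisons, and 29 to 42 subunit genes in the line test. Medians were 0.42 to 0.47 with taurolidine and 0.38 to 0.50 with both agents. With both agents 22, 41 and 58 of all 14221 genes rose without A-204, SK-LMS-1 and VA-ES-BJ in turn. No alternative gave a subunit gene that passed for TRAIL, for TRAIL added to taurolidine, for additivity or for the line differences in the taurolidine response, where each could be run; the block and the 6-array setting do not apply to the last, and the 6-array setting does not apply to additivity.

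Scaled to the spiked poly-A transcripts most signs turned, since every array was shifted by 1 value. Subunit genes above 0 then numbered 0 with taurolidine, 15 with both agents and 1 with taurolidine added to TRAIL. With taurolidine 0 rose and 39 fell and the median was -0.29 (-0.25 in complex I, -0.51 in II, -0.29 in III, -0.26 in IV and -0.28 in V), with both agents 0 rose and 5 fell with a median of -0.11, and with taurolidine added to TRAIL 0 rose and 28 fell. The share of all passing genes that rose with taurolidine was then 0.272%. The taurolidine changes became -0.04 for NDUFA1, -0.05 for NDUFA13, -0.07 for NDUFS7, -0.29 for SDHC, -0.67 for SDHA, -0.51 for SDHD, -0.22 for UQCR11, -0.24 for UQCRC1, -0.37 for UQCRC2, -0.28 for UQCR10, -0.30 for UQCRB and -0.30 for UQCRQ. In complex IV they were -0.20 for COX6A1 and COX5B, -0.21 for COX6B1, -0.22 for COX4I1, -0.45 for COX4I2, -0.41 for COX7A2, -0.24 for COX7B and -0.30 for COX8A, and in complex V -0.10 for ATP5ME, -0.21 for ATP5MK and -0.22 for ATP5MC1. Among the surrounding genes they were -0.43 for COX2, -0.22 for ETFB, -0.24 for CYC1, -0.37 for ETFA, -0.32 for NDUFAF2, -0.36 for TIMMDC1, -0.38 for NDUFAF3, -0.68 for SDHAF3, -0.21 for BCS1L, -0.57 for TTC19, -0.04 for PET100, -0.09 for SURF1, -0.31 for FMC1, -0.21 for MDH2, -0.27 for IDH3G, -0.28 for SUCLG2, -0.29 for SUCLG1, -0.20 for TIMM13, -0.29 for TIMM50 and -0.34 for VDAC3. With both agents the changes below 0 included -0.12 for SDHC, -0.03 for UQCRC1, COX6B1 and ATP5MJ, -0.11 for UQCR10 and -0.01 for COX7B. With taurolidine added to TRAIL they were -0.06 for NDUFA2, -0.11 for NDUFS7, -0.12 for NDUFA1, -0.18 for SDHC and ATP5PF, -0.09 for UQCRC1, -0.20 for UQCRC2, -0.19 for COX6A1, -0.23 for COX5B, -0.07 for ATP5ME and -0.14 for ATP5MJ.

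With probe sets of no suffix preferred, NDUFS7 and UQCR11 were at -0.41 and -0.06 with taurolidine, UQCR11 at -0.14 with both agents, COX5B at -0.23 with taurolidine added to TRAIL and TIMM50 at -0.03, each from a dimmer probe set. The cause of the other shifts was not tested. Genes near the background had larger standard errors, 0.61 for COX6B2 and 0.27 for COX6A2, than the median of 0.12.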
